A study of Equus caballus with 4 samples.

Results

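The insulin-like growth factor (IGF) system was examined in equine satellite cells with and without gamma-oryzanol (GO), a mixture of ferulic acid esters of sterols and triterpene alcohols from rice bran. The genes were the ligands IGF1 and IGF2, the receptors IGF1R and IGF2R, and the binding proteins IGFBP2, IGFBP3, IGFBP4, IGFBP5, IGFBP6 and IGFBP7. They were chosen by the gene name of the array files, and 20 of the 43603 different noncontrol probes stood for these 10 genes, out of 9624 tested genes with a symbol. A name equal to the symbol, in any case, gave 6 probes of 5 genes. A further 9 probes of 4 genes carry a hyphen in the name (IGFBP-3, IGFBP-4, IGFBP-5 and IGFBP-6), and the 5 probes of IGFBP7 carry its older name AGM (angiomodulin) and were matched through the RefSeq gene table.

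Satellite cells are the stem cells of skeletal muscle. The cultures came from the semitendinosus muscle of young colts and were in differentiation medium with 2% horse serum. According to the paper, cultures of all animals were scored for viability and fusion, and the best line was chosen for further work. GO-treated cells received 125 nM GO in DMSO (0.04 μl/ml) for 24 h and were harvested on day 3 of differentiation, and control cells received the same dose of DMSO alone. On each of 4 two-color arrays of 1 slide, cRNA of GO-treated cells (Cy5) was hybridized together with cRNA of control cells (Cy3). The labels call the 4 arrays biological replicates, but the sources used here do not say whether they were separate horses or separate cultures of the chosen line, so the p-values measure the spread between these arrays. No array had the dyes swapped, and for any probe the dye and GO cannot be told apart. Each value below is a log2 ratio of GO over control, positive where the signal was higher in GO-treated cells, and a probe was called changed where its adjusted p (limma, Benjamini-Hochberg adjustment over 26832 probes) was no larger than 0.05 and its fold change no smaller than 1.3, or 0.38 on the log2 scale.

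IGF1 and IGF2 are secreted peptides that act on muscle cells through IGF1R, a receptor tyrosine kinase that drives proliferation, differentiation and protein synthesis through PI3K, AKT and mTOR. IGF2R binds IGF2 without such a kinase and carries it to the lysosome. The binding proteins hold the ligands outside the cell, prolong their life and limit or time their access to the receptor, and IGFBP7 is a related protein of low affinity for IGFs. In differentiating muscle cells IGF2 is made by the cells themselves, and IGFBP5 is a binding protein that myoblasts are known to make during differentiation.

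Of the 10 genes, 3 changed: IGFBP2 and IGFBP3 fell and IGFBP4 rose. Counted by probe, 4 of 20 were past both thresholds, against 8.94% of all tested probes (3.33% higher, 5.61% lower). Counted by the brightest probe of each gene, 3 of 10 compare with 8.85% of 9624 genes. All 20 probes met the filter on dim probes, that of IGF1 through the control channel alone. The median log2 ratio of the brightest probes was -0.26, beside 0.00 over all tested probes, and their median size was 0.32, beside 0.13. Their arrays also scattered more, with a median SD of 0.205 against 0.143. The ratio was lower on all 4 arrays for 4 genes (IGF1, IGFBP2, IGFBP3 and IGFBP7) and higher on all 4 for 1 gene (IGFBP4). Over all tested probes 43.6% had 1 sign on all 4 arrays, so these counts are near the background share. IGF1 is higher in the channel it was tested through, so its sign is no support for a change. On the same arrays 5 of 7 muscle markers also fell by both criteria.

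**Figure D1:**
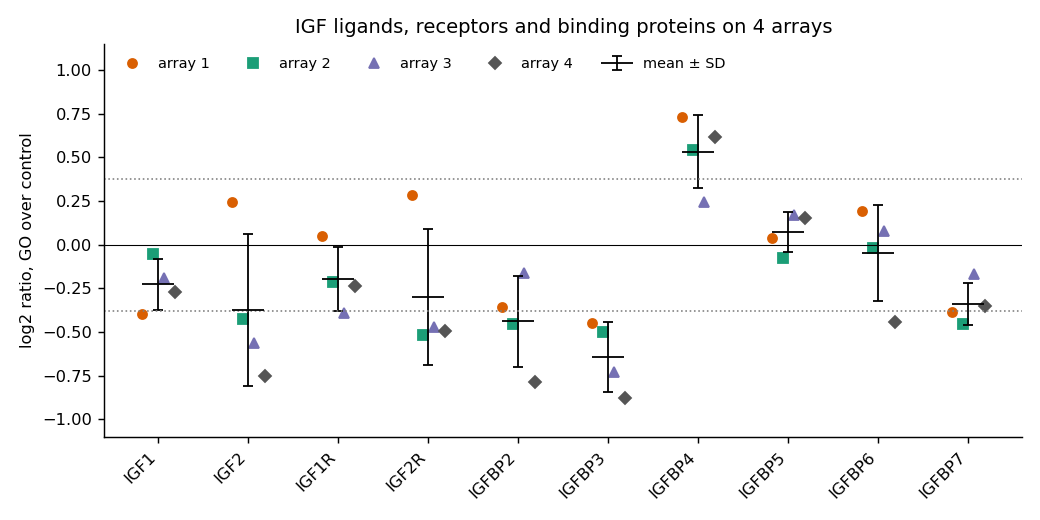
Log2 ratio (GO over control) for the brightest probe of each of the 10 genes, with 1 point per array and the mean ± SD (n = 4) in black. Dotted lines mark the fold change of 1.3; IGFBP3 lies below 0 and IGFBP4 above 0 on every array, while array 1 stands above the other arrays for IGF2, IGF1R and IGF2R.

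The ligands had lower mean ratios in GO-treated cells, but neither was called. The IGF1 probe, which spans an intron (chromosome 28 of EquCab1, from 26114321 to 26118887), had log2 ratios of -0.40, -0.05, -0.19 and -0.27 on arrays 1 to 4. Its processed signals were near the background: 42.1, 47.1, 29.4 and 36.2 in the control channel and 32.0, 45.5, 25.8 and 30.0 in the GO channel. All 4 ratios were below 0, and the probe cleared the background in control cells on 4 arrays but in GO-treated cells on 3. It was thus tested through the control channel alone, where it is higher, so its sign is no support for a change. The mean of the 4 ratios, -0.23 ± 0.145 (SD, n = 4), did not pass (adjusted p = 0.0742 from limma). The value depended on the background correction and scaling: it was -0.035 (adjusted p = 0.608) with normexp and loess and -0.30 (adjusted p = 0.0308, short of the fold change threshold) with centering on the median.

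The brightest IGF2 probe had a signal of 24.1 to 92.1 times the local background. It lies on the unplaced part of EquCab1 (from 277275501 to 277275560) and is shown because both probes that the files name IGF2, which lie next to each other without sharing a base, behaved alike.

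IGF2: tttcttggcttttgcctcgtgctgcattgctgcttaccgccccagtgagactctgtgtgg

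The control signals for this probe were 1266, 3092, 1424 and 1563 on arrays 1 to 4, and the GO signals were 1502, 2302, 964 and 928. GO-treated cells were thus higher on array 1 and lower on the other 3 arrays. The log2 ratios were 0.25, -0.43, -0.56 and -0.75, with a mean of -0.37 ± 0.435 (SD, n = 4; adjusted p = 0.140 from limma), a spread larger than the mean. The second probe gave 0.21, -0.34, -0.50 and -0.64. A further probe, which the files do not name IGF2 but describe as part of its 3′ UTR, was lower on every array, with -0.27, -0.41, -0.51 and -0.15. Its mean was -0.34 ± 0.159 (SD, n = 4; adjusted p = 0.0296 from limma), below the fold change threshold, and it is in no count above. Without array 1 the mean of the brightest IGF2 probe was -0.58 and past both thresholds (adjusted p = 0.0195 from limma). Without array 2, 3 or 4 it was -0.36, -0.31 or -0.25 and not called (adjusted p = 0.296, 0.335 and 0.328 from limma). The difference between both ligands, IGF2 minus IGF1, was -0.15 on average and did not exceed the spread between arrays (exact sign-flip test, two-sided, p = 0.625, where 4 arrays allow no p below 0.13).

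Neither receptor was called. IGF1R, the receptor through which both ligands signal, had 1 probe (chromosome 1, from 101337333 to 101337392) with log2 ratios of 0.05, -0.22, -0.39 and -0.23. The mean was -0.20 ± 0.182 (SD, n = 4; adjusted p = 0.135 from limma). Array 1 was the one array without a lower signal in GO-treated cells, and without it the mean was -0.28 (adjusted p = 0.0497 from limma), still short of the fold change threshold. Without array 2, 3 or 4 the mean was -0.19, -0.13 or -0.19 (adjusted p = 0.301, 0.388 and 0.269 from limma).

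The IGF2R probe (chromosome 31, from 8218205 to 8218264) had control signals of 89.8, 159, 91.5 and 96.9 and GO signals of 109.6, 111, 66.0 and 68.8. On array 1 GO-treated cells were higher, and on the other 3 arrays they were lower by nearly the same amount. This gave log2 ratios of 0.29, -0.52, -0.47 and -0.49, with a mean of -0.30 ± 0.391 (SD, n = 4; adjusted p = 0.183 from limma). Without array 1 the mean was -0.49 and the probe was past both thresholds (adjusted p = 0.0137 from limma). Without array 2, 3 or 4 the mean was -0.23, -0.24 or -0.23 and the probe was not called (adjusted p = 0.433, 0.408 and 0.369 from limma). The ratios of IGF2 and of its clearance receptor differed by -0.07 on average (exact sign-flip test, two-sided, p = 0.375).

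**Figure D2:**
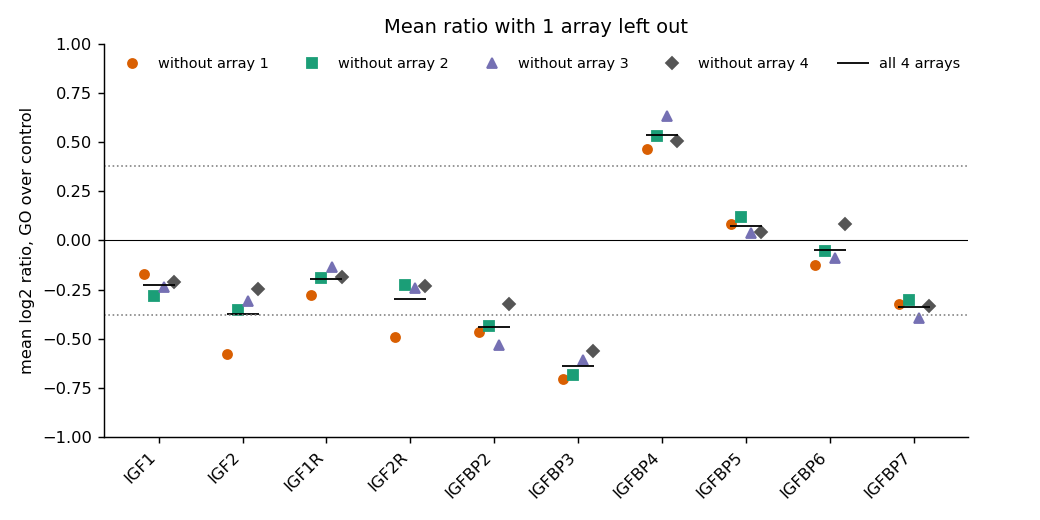
Mean log2 ratio of the brightest probe of each gene with 1 of the 4 arrays left out (points) and with all 4 (black bars). Only leaving out array 1 moved IGF2 (-0.58) and IGF2R (-0.49) beyond the dotted line of the fold change of 1.3. IGFBP3 and IGFBP4 kept their side of that line in every case.

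The changed genes were all binding proteins. The brightest probes of the 3 that changed and of IGFBP7 are shown because the results turn on them, and for IGFBP5, which did not change, the probe that lies apart from its 5 overlapping ones is shown.

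IGFBP2: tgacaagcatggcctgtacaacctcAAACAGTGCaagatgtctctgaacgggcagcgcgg
IGFBP3: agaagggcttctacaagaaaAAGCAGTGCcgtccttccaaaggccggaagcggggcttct
IGFBP4: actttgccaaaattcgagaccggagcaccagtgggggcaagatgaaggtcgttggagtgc
IGFBP5: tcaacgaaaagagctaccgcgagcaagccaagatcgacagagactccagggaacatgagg
IGFBP7: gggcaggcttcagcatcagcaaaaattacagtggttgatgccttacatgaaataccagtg

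Capitals mark the letters AANCAGTGC, found in the probes of IGFBP2 and IGFBP3, the pair of genes that fell. They also stand in all 5 probes of IGFBP1, and in 0.213% of all noncontrol probes of 60 bases when both strands are searched. This run was picked after the probes had been compared and is a description of related coding sequences. The longest run of bases shared by probes of 2 different genes, over all 20 probes, was 8.

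IGFBP3, the main IGF carrier of the blood, fell most. Its probe on chromosome 4 (from 16310586 to 16311740, over an intron) had control signals of 354, 369, 770.0 and 548 on arrays 1 to 4 and GO signals of 259, 261, 464 and 298. The GO signal was the lower one within each array, although the channels overlapped when all arrays were pooled. The log2 ratios were -0.45, -0.50, -0.73 and -0.88, with a mean of -0.64 ± 0.201 (SD, n = 4; adjusted p = 0.00692 from limma), or 1.56-fold. IGFBP3 stayed past both thresholds without any 1 of the arrays, at -0.70 to -0.56, and in 9 of 12 alternatives in all. For IGFBP2, IGFBP3 and IGFBP4, with 1 probe each, 1 of the 12 repeats the reported fit by construction. It is the median over the probes of a gene, so its call is no support.

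IGFBP2, a binding protein abundant in fetal tissues, also fell. Its probe on chromosome 6 (from 6601694 to 6603960, over an intron) had control signals of 2293, 2628, 1504 and 1864 and GO signals of 1790.1, 1922, 1347 and 1079. Every array was lower in GO-treated cells, array 3 by little and array 4 by most. The log2 ratios were -0.36, -0.45, -0.16 and -0.79, with a mean of -0.44 ± 0.263 (SD, n = 4; adjusted p = 0.0338 from limma), or 1.36-fold. Its adjusted p became 0.0698 without array 1, 0.110 without array 2 and 0.0638 without array 4, so the call was lost without any 1 of these 3. It was also lost with centering on the median (-0.36), and IGFBP2 was past both thresholds in 5 of 12 alternatives.

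IGFBP4, a binding protein that mostly inhibits IGF action, rose. Its probe on chromosome 11 (from 20885389 to 20885448) had control signals of 79.9, 95.4, 132 and 72.6 and GO signals of 133, 139, 156 and 111. GO-treated cells were higher on each array, least so on array 3. Its log2 ratios of 0.73, 0.54, 0.24 and 0.62 had a mean of 0.53 ± 0.210 (SD, n = 4; adjusted p = 0.0126 from limma), or 1.45-fold. The signal was 4.27 to 6.97 times the local background, and with normexp background correction and loess the log2 ratio was 0.24, short of the fold change threshold. Without array 2 the adjusted p was 0.0578, and IGFBP4 was past both thresholds in 7 of 12 alternatives.

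**Figure D3:**
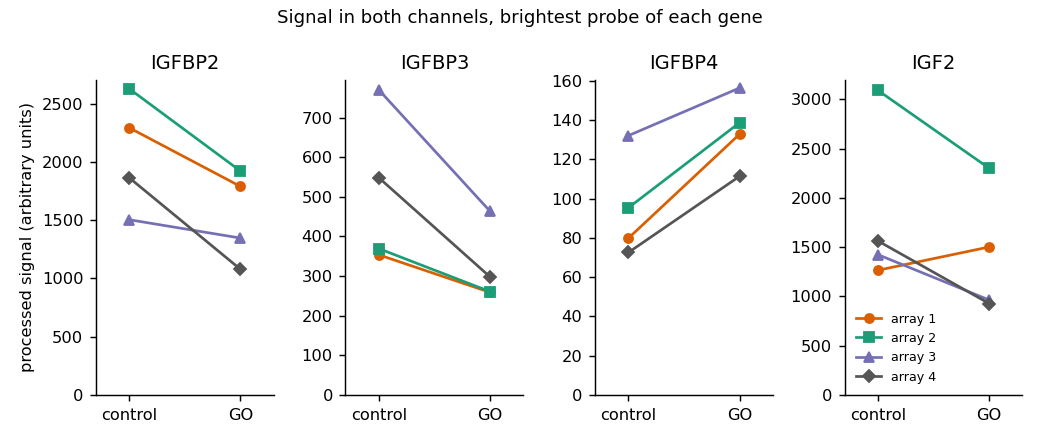
Processed signal in arbitrary units in the control channel and the GO channel of each array (lines join the channels of 1 array) for the brightest probe of IGFBP2, IGFBP3, IGFBP4 and IGF2. All 4 lines fall for IGFBP2 and IGFBP3 and rise for IGFBP4, and the line of array 1 rises for IGF2 while the other 3 fall.

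IGFBP7 was lower on all arrays without reaching the fold change threshold at its brightest probe (chromosome 3, from 69283928 to 69283987). The control signals were 795, 661, 561 and 487 and the GO signals 609, 483, 499 and 382. The log2 ratios were -0.39, -0.45, -0.17 and -0.35, with a mean of -0.34 ± 0.121 (SD, n = 4; adjusted p = 0.0207 from limma). All 5 IGFBP7 probes passed the adjusted p alone, as did 18.1% of all tested probes. Their means ran from -0.39 to -0.34, and 1 of them, at -0.39, was past both thresholds. These 5 probes are offset by single bases and share 56 to 59 of their 60 bases, so they repeat 1 measurement.

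IGFBP5 and IGFBP6 showed no change that exceeded the spread between arrays. IGFBP5 had 6 probes, and their mean log2 ratios lay between 0.06 and 0.08. The brightest gave 0.04, -0.08, 0.17 and 0.15 on arrays 1 to 4, a mean of 0.07 ± 0.115 (SD, n = 4; adjusted p = 0.478 from limma). Of the 6 probes 5 overlap by 56 to 59 bases, and the sixth, printed above, lies elsewhere in the gene, over an intron (from 6617081 to 6630556) and gave -0.04, -0.17, 0.41 and 0.06. IGFBP5 lies beside IGFBP2 on chromosome 6 and on the opposite strand. IGFBP2 was lower than IGFBP5 on each array, with a mean difference of -0.51 ± 0.290 (SD, n = 4; exact sign-flip test, two-sided, p = 0.13, the smallest possible). Over the 3 differences between genes computed here, the adjusted p (Benjamini-Hochberg) of the exact tests was 0.375 for IGFBP2 and IGFBP5, 0.562 for IGF2 and IGF2R and 0.625 for IGF2 and IGF1.

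IGFBP6, a binding protein with a preference for IGF2, had 1 probe (chromosome 6, from 70198242 to 70198301), with a signal 133 to 265 times the background. Its log2 ratios of 0.19, -0.02, 0.08 and -0.44 took both signs, with a mean of -0.05 ± 0.276 (SD, n = 4; adjusted p = 0.791 from limma). Array 4 was the lowest, and without it the mean was 0.084.

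**Figure D4:**
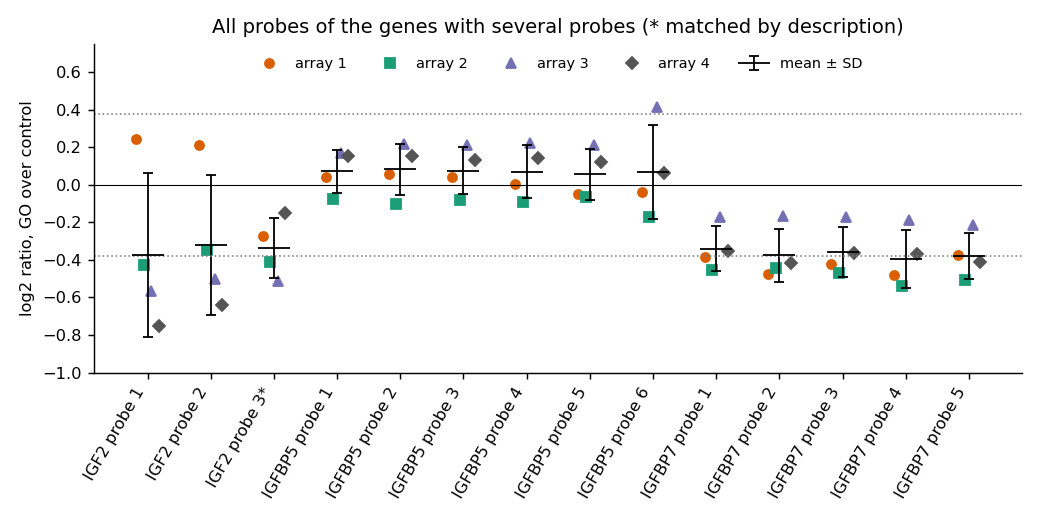
Log2 ratio of every probe of IGF2, IGFBP5 and IGFBP7 on the 4 arrays, with the mean ± SD (n = 4) in black and dotted lines at the fold change of 1.3. IGF2 probes 1 and 2 are positive on array 1 alone, the probe matched by its description (asterisk) is negative on all arrays, the IGFBP5 probes lie around 0 and the IGFBP7 probes are all negative.

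The rest of the pathway was described with a list of 44 genes, of which 36 were on the array and 31 were tested. Past both thresholds were 3 of the 31, all lower in GO-treated cells, beside 8.85% of all tested genes, and the median log2 ratio of the 31 was -0.02. This share is near the background and is no result about the list. Outside the cell, 0 of 3 tested genes of IGF binding and release changed (limma), and 0 of 3 had an unadjusted p below 0.05. IGFBP1, the binding protein of liver and decidua, was not well above background on any array with any of its 5 probes, and neither were insulin and PAPPA2, a protease that cleaves binding proteins. INSR, the insulin receptor, stood at 0.34 ± 0.201 on the log2 scale (SD, n = 4; adjusted p = 0.0422 from limma), short of the fold change threshold. Control cells cleared the background on 3 arrays only, so it was tested through the GO channel alone, where it is higher, and with normexp and loess it stood at 0.066 (adjusted p = 0.416 from limma).

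Inside the cell, the genes past both thresholds were FOXO1, FOXO3 and IGF2BP3. FOXO1 and FOXO3 are transcription factors that AKT holds out of the nucleus. FOXO1 had log2 ratios of -0.30, -0.40, -0.45 and -0.44 on arrays 1 to 4, with a mean of -0.40 ± 0.0667 (SD, n = 4; adjusted p = 0.00863 from limma). The brightest FOXO3 probe gave -0.09, -0.51, -0.56 and -0.55, a mean of -0.43 ± 0.226 (SD, n = 4; adjusted p = 0.0271 from limma), while its other 8 probes lay between -0.30 and -0.10 and were not called. IGF2BP3, a protein that binds IGF2 mRNA, gave -0.38, -0.26, -0.78 and -0.56, a mean of -0.50 ± 0.225 (SD, n = 4; adjusted p = 0.0175 from limma). Only 2 arrays had it well above background in GO-treated cells, so it was tested through the control channel alone, where it is higher, and its call is no support for a change. With both channels required it was not tested and 2 pathway genes were past both thresholds, and with normexp and loess its log2 ratio was -0.15. Its other probes were too dim to be tested.

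Of the 7 tested genes of PI3K, AKT and their brakes, 0 were past both thresholds (limma), and 2 had an unadjusted p below 0.05. PIK3R1, the regulatory subunit of PI3K, had a log2 ratio of 0.33 ± 0.0977 and PIK3CB, a catalytic subunit, of -0.26 ± 0.0949 (SD, n = 4), these 2 being past the adjusted p alone (0.0176 and 0.0365 from limma). All 8 tested genes of the mTOR branch, the 4 adaptors and the 2 related receptors stayed short of at least 1 threshold. An unadjusted p below 0.05 was found for 11 of the 31 tested genes, the 3 called ones included. Of all tested probes 18.1% passed the adjusted p, so at least that share had an unadjusted p below 0.05. The exact share was not counted, so these counts are no result about the list. With normexp and loess 0 of the 31 were past both thresholds (limma), and 9 had an unadjusted p below 0.05.

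**Figure D5:**
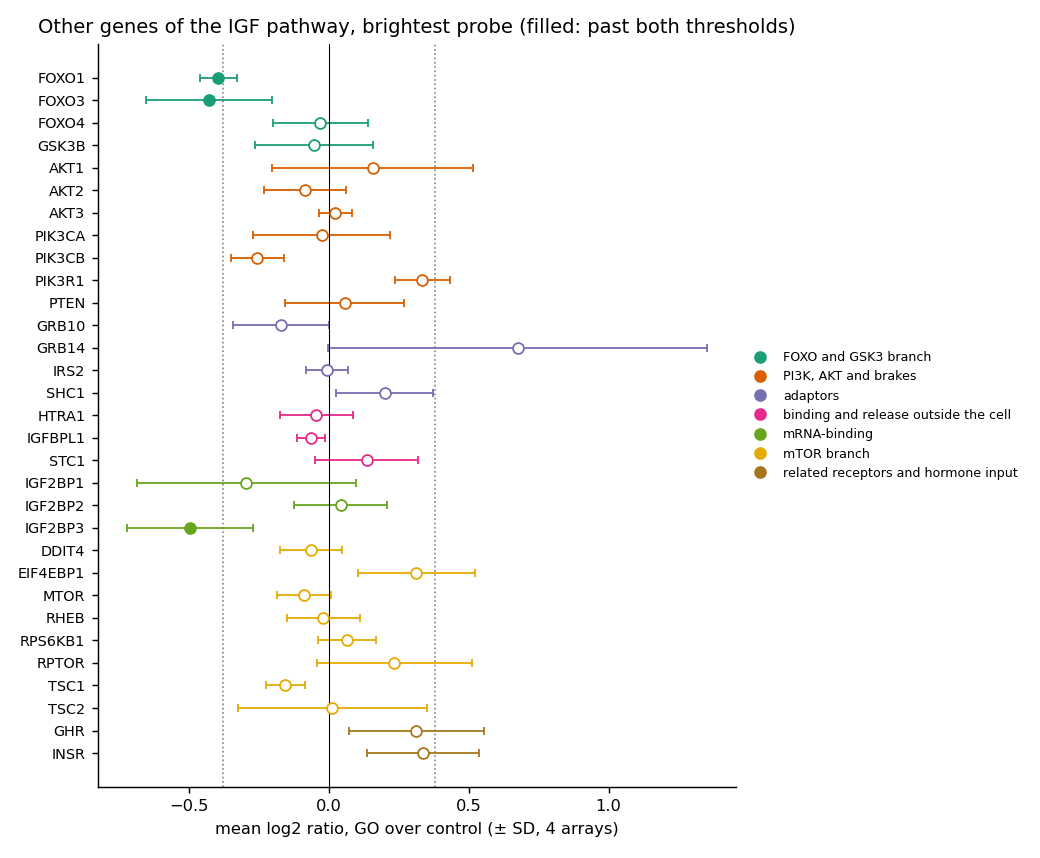
Mean log2 ratio (GO over control) with its SD (4 arrays) for the brightest probe of the 31 tested pathway genes, colored by their place in the pathway. Filled points (FOXO1, FOXO3 and IGF2BP3) were past both thresholds, and dotted lines mark the fold change of 1.3.

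Markers of the cells in the culture moved between the groups as well. All 7 muscle markers on the array were well above background, and the 5 that fell were DES, MYF5, MYH3, MYOG and NCAM1. The summed signal of the 7 was 100781 to 133535 in the control channel and 59783 to 79317 in the GO channel. This sum is mostly MYH3 and DES. In the control channel they stood at 1428 to 2203 and 489 to 686 times the background, beside 10.5 to 20.1 for MYF5. Of 4 fibroblast markers TCF21 was too dim to be tested. Among the others 1 changed, PDGFRA (0.87 ± 0.480 on the log2 scale, SD, n = 4; adjusted p = 0.0199 from limma), where 8.85% of all tested genes did. Its control signal was only 2.16 to 3.17 times the local background. The second PDGFRA probe stood at 1.38 (adjusted p = 0.00560 from limma) and was past both thresholds. In control cells it was well above background on 2 arrays only. It was therefore tested through the GO channel alone, where it is higher, and its call is no support for a change. COL3A1 was judged by its brightest probe (-0.10), and its next brightest stood at -0.18. The dimmer COL3A1 probes stood at 0.32 to 0.37 and were not called. The summed fibroblast signal was 91878 to 138293 in the control and 90091 to 125719 in the GO channel. This sum is mostly COL3A1, at 1991 to 3347 times the background in the control channel, beside 17.2 to 31.8 for THY1. None of the 3 adipocyte and 4 endothelial markers was well above background on any array. Of 4 leukocyte markers CD14 and CD68 were well above background on all arrays and CD3E and ITGAM on none. In RNA of a whole culture, fewer cells of a type and less RNA per cell cannot be told apart, and the part of the cell composition in the ratios of the IGF genes was not tested. The reference gene GAPDH stood at -0.04 ± 0.134 (SD, n = 4; adjusted p = 0.738 from limma) on the log2 scale, which became 0.34 with normexp and loess and 0.93 with centering on the median, so its direction depended on the scaling.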

How the data were processed

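Gene expression was measured on 4 two-color horse arrays of 1 slide, each with 43803 noncontrol spots and probes of 60 bases. The authors processed the scans with Feature Extraction. The deposited log10 ratios (Cy5 over Cy3) and the deposited signal intensity of each channel are those after background subtraction, detrending and dye normalization with lowess. Other columns that the authors deposited flag spots as well above background, saturated or outlying, or hold probe names and sequences. The series table held the same ratios (180880 of 180880 equal within 1e-09).

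Here the ratios were converted to log2, control spots (1417) and outlier spots were left out, and spots of 1 probe were averaged. A probe was tested if at least 1 of the channels was well above background on each of the 4 arrays (26832 of 43603 probes; the same channel throughout). The test against 0 used limma (version 3.58.1; R version 4.3.3), with lmFit on an intercept and eBayes, two-sided, with Benjamini-Hochberg adjustment over all tested probes. Differences between genes were tested with the exact sign-flip test over arrays. The brightest probe of a gene is that with the highest mean log2 signal. In simulated ratios of these 26832 probes, 82.5% of 200 probes changed by 0.5 and 99% of 200 changed by 1 (log2) were recovered. False calls numbered 9 and 12. The simulated noise was independent and normal, and far fewer probes changed than were called here. These rates therefore need not hold for the IGF genes.

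All 10 members were named, each pathway gene past both thresholds, and otherwise counts with GAPDH as reference. INSR, PIK3R1, PIK3CB, PDGFRA, COL3A1, THY1 and the muscle markers were named after their values were seen. The members and lists were chosen with earlier results of these data known. Names missing from the files came from the RefSeq gene table, and positions are those of the files (EquCab1). Between 57.4 and 68.9% of spots were well above background in a channel, 0 were saturated, and ratios correlated across probes at 0.445 to 0.683 between pairs of arrays. The number of arrays limits the precision. Alternatives were other normalizations, filters, tests and probe summaries, array weights, and leaving out each array. Figures were drawn with matplotlib (version 3.10.9).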

Additional observations from a re-analysis of the deposited data

Results flagged for a closer look

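Among 4 arrays, a value counted as standing apart where its gap to the nearest other array, divided by the whole range, was above Dixon's 95% critical value. This was checked for 25 probes, and chance gives about 1 in 20. The IGF2R log2 ratio of array 1 (0.29, beside -0.52 to -0.47 on the others) had a gap of 0.943 of the range. The FOXO3 log2 ratio of array 1 (-0.09, beside -0.56 to -0.51) had a gap of 0.881 of the range, and without that array the mean of FOXO3 was -0.54. The lowest correlation of all pairs was that of arrays 1 and 4 (0.445), while array 1 correlated at 0.680 with array 2. Array 1 also had the lowest quality weight in limma (0.517, beside 0.971 to 1.87). The cause was not tested.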

How the results depend on the processing

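Under the alternatives 189 log2 ratios were compared, for the 10 members and the 6 pathway genes past the adjusted p. Of these, 149 kept their sign and side of the thresholds, 33 lost the call, 5 gained it and 2 changed sign. Both sign changes were of IGFBP6 (0.081 with centering on the median without lowess, and -0.13 to 0.084 without 1 array, positive without array 4). Without the filter on dim probes, with both channels required, in the plain test and with separate channels the ratio itself stays the same. Its sign was therefore fixed in those settings. The median over probes was applied to the members only and repeats the ratio of any member with 1 probe. In place of 4 member probes, 2 were past both thresholds with normexp and loess, 2 with centering on the median, 0 without the filter on dim probes, 0 in the plain one-sample test, 0 with the channels as separate samples and no pairing by array, 8 with array weights and 1 with exact gene names alone, an alternative added after seeing the data. Beside the first 6 of these counts, 4.83%, 14.3%, 2.08%, 0.548%, 1.38% and 9.20% of all tested probes were past both, in that order, and 8.94% in the fit reported. In place of 3 member genes, 0, 0, 0 and 5 were past both without the filter, in the plain test, with separate channels and with array weights. The unadjusted p was below 0.05 for 5, 4 and 2 members in those first 3 settings. In place of 3 pathway genes, 0 were past both with normexp and loess, 6 with centering, 1 without the filter, 0 in the plain test and 0 with separate channels, where the unadjusted p was below 0.05 for 9, 10, 9, 7 and 4 of them. The share of all tested probes with an unadjusted p below 0.05 was not counted in any setting. Counts by the unadjusted p are therefore no result about the genes. The unfiltered fit adjusts over 43603 probes, and the cause of the other differences was not tested.

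Leaving out 1 array gave 1 to 8 member probes, 1 to 4 member genes and 0 to 5 pathway genes past both thresholds. Of all tested probes 9.06%, 5.84%, 5.97% and 7.92% were past both without arrays 1 to 4. Without array 2 IGFBP3 was the only member gene left. Without array 3 there were 8 member probes, 5 of them the overlapping IGFBP7 probes. There 0 pathway genes were past both (limma), and 10 had an unadjusted p below 0.05. Without array 1 IGF2 and IGF2R were past both and IGFBP2 was not, and 5 pathway genes were. The fit reported called 2399 probes, 37.3% of them higher, and centering 3847 (58.0% higher). The range of the adjusted p over the alternatives was 0.000352 to 0.381 for IGFBP3, 0.0170 to 0.491 for IGFBP2 and 0.00241 to 0.278 for IGFBP4. Their log2 ratios kept their sign in all 12, which include the settings named above that leave the ratio itself unchanged. IGF1 and IGF2BP3 were near the background, and the filter that asks for both channels on all arrays left them untested.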
